A study of Mus musculus with 6 samples.

Results

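Imprinted genes are the subject here: 39 genes of 15 chromosomal regions that mice are known to express mainly from 1 parental allele, read as RNA in 2 neighbouring cell populations of the mouse incisor. The members were chosen by name, from known imprinted genes, after the difference between these populations had already been seen in these same samples. That difference is therefore a description: no p-value of a member is given for it. Calls appear only beside those of all genes, and nothing is read from them. The comparison between sets of libraries played no part in the choice of members. The split into sets was itself seen in these data, so its adjusted p-values are a description too. All 39 members were listed among the 23718 genes of the table. Of these, 33 reached a mean value of at least 1 over the 6 libraries and entered the fit with 15391 genes in all, and 6 (Asb4, Magel2, Mkrn3, Phlda2, Slc22a18 and Snurf) did not.

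The mouse incisor grows throughout life, and the study compared mesenchymal stem cells (MSCs) with transit amplifying cells (TACs), the dividing cells between stem cells and dentin-forming odontoblasts. MSCs were captured by laser from Gli1-CreER;tdT mice and TACs from Axin2-CreER;tdT mice, both 1 month old, 1 day after tamoxifen switched on the red tdT label. The labels give the strain as C57BL/6, whereas the study's methods describe a mixed background. There were 3 samples of each, and the study's methods give 3 mice a group. Every MSC sample carried the Gli1 driver and every TAC sample the Axin2 driver, so the driver and the population cannot be told apart. Capture took small areas of tissue, and in such bulk samples fewer cells of a type and less RNA per cell cannot be told apart.

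Genomic imprinting silences 1 parental copy of a gene through DNA methylation that is laid down in the egg or the sperm and kept in body cells. Imprinted genes lie in clusters under shared control regions, and in many clusters a long noncoding RNA comes from 1 parental chromosome and growth-related coding genes from the other. Several of them, Igf2, Dlk1, Peg3 and Cdkn1c among these, are known for control of growth before birth and are often kept on in stem cells of adult tissues. The table gives 1 value per gene and does not separate the alleles, and the parental allele named below for each member is background. For some members it holds in a few tissues only: Ube3a is maternal in neurons, Grb10 switches to the paternal copy there, and Gnas, Copg2, Blcap, Trappc9, Ppp1r9a and Inpp5f are imprinted in part of the tissues or transcripts.

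The libraries held 20203159 to 108156380 estimated reads. Replicates 1 and 2 of each group were nearly the same (mean chi-square per gene of 10.4 between the MSC pair and 8.53 between the TAC pair, against 1619 and 2309 for replicate 1 with replicate 3), while replicate 3 stood apart in both groups. Whether replicates 1 and 2 are repeat libraries of 1 RNA is not stated, and if they are, the n of 3, the SDs, SEs and adjusted p-values below overstate the number of independent samples. Mitochondrial ribosomal RNA took 8.28% to 9.07% of the reads in replicates 1 and 2 but 0.236% in MSC replicate 3 and 0.112% in TAC replicate 3, and 6.89% to 8.36% of genes had no read in the former against 43.1% and 28.3% in the latter. Differences are therefore also given within replicates 1 and 2 and within replicate 3, called the 2 sets of libraries. Gli1 was listed at 256, 245 and 422 in MSCs and 153, 141 and 396 in TACs, and Axin2 at 58.3, 48.0 and 12.01 against 56.8, 63.9 and 34.1. The values of both label genes overlapped between the groups, with Gli1 higher in MSCs within both sets (log2 differences of -0.77 and -0.09) and Axin2 higher in TACs within both (0.18 and 1.43). Mki67, a marker of dividing cells, stood at 137, 130.1 and 41.5 in MSCs and at 593, 629.7 and 122 in TACs, which also overlapped and were higher in TACs within each set.

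Values are reads scaled between libraries, with gene length not divided out. The median difference of the members, TAC minus MSC on the log2(value + 1) scale, was -0.58, against 0.03 over all genes tested, and it was -0.45 within replicates 1 and 2 and -0.80 within replicate 3. Of the 33 members tested, 12 were higher in every MSC library than in any TAC library (36.4%, where 12.2% of all genes tested did this) and 2 were higher in every TAC library (6.06%, where 12.3% did). Higher values in MSCs within both sets of libraries were found for 20 members (60.6%, where 31.2% of all genes did this), higher values in TACs within both sets for 6 (18.2%, where 30.1% did), and opposite directions for 7 (21.2%, where 38.8% had them). At an adjusted p under 0.05 in limma, H19 and Igf2 were called higher in MSCs, beside 0.383% of all genes, and 0 members were called higher in TACs, beside 0.039% of all genes. Since the members were chosen on this contrast, nothing is read from these shares. Among the 12 without overlap, Kcnq1 passed the filter on low values only through its MSC libraries (means of 2.13 in MSCs and 0.309 in TACs), and it is also in the counts below. With any 1 of MSC replicates 1 and 2 or TAC replicates 1 and 2 left out, 0 members and 0 of all genes were called (6 or 7 members had an unadjusted p under 0.05, as did 7 with all libraries), while the difference of H19 stayed between -4.42 and -4.21 and that of Igf2 between -2.62 and -2.45. With the set of libraries as a batch term 8 members were called (Meg3, Peg13, Peg3, Ppp1r9a and Zim1 also in MSCs, Grb10 in TACs), beside 11.8% of all genes. A difference of at least 1 on the log2 scale was reached by 11 of the 33 members toward MSCs, beside 10.9% of all genes, and by 0 toward TACs, beside 11.3%.

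Members of both parental alleles were among those higher in MSCs. Of 14 maternal members tested, 4 were without overlap and higher in MSCs, where 12.2% of all genes did this, with a median log2 difference of -0.49. Of 19 paternal members tested, 8 did the same, with a median of -0.58. These groups go by the allele known from elsewhere and include the members named above as imprinted in some tissues or transcripts only. All members together took 0.795% to 0.942% of the estimated reads in the MSC libraries and 0.447% to 0.477% in the TAC libraries, ranges that did not overlap. Most of that gap lay in H19, Igf2, Peg3 and Meg3, since the other 35 members took 0.352% to 0.392% in MSCs and 0.314% to 0.349% in TACs.

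**Figure D1:**
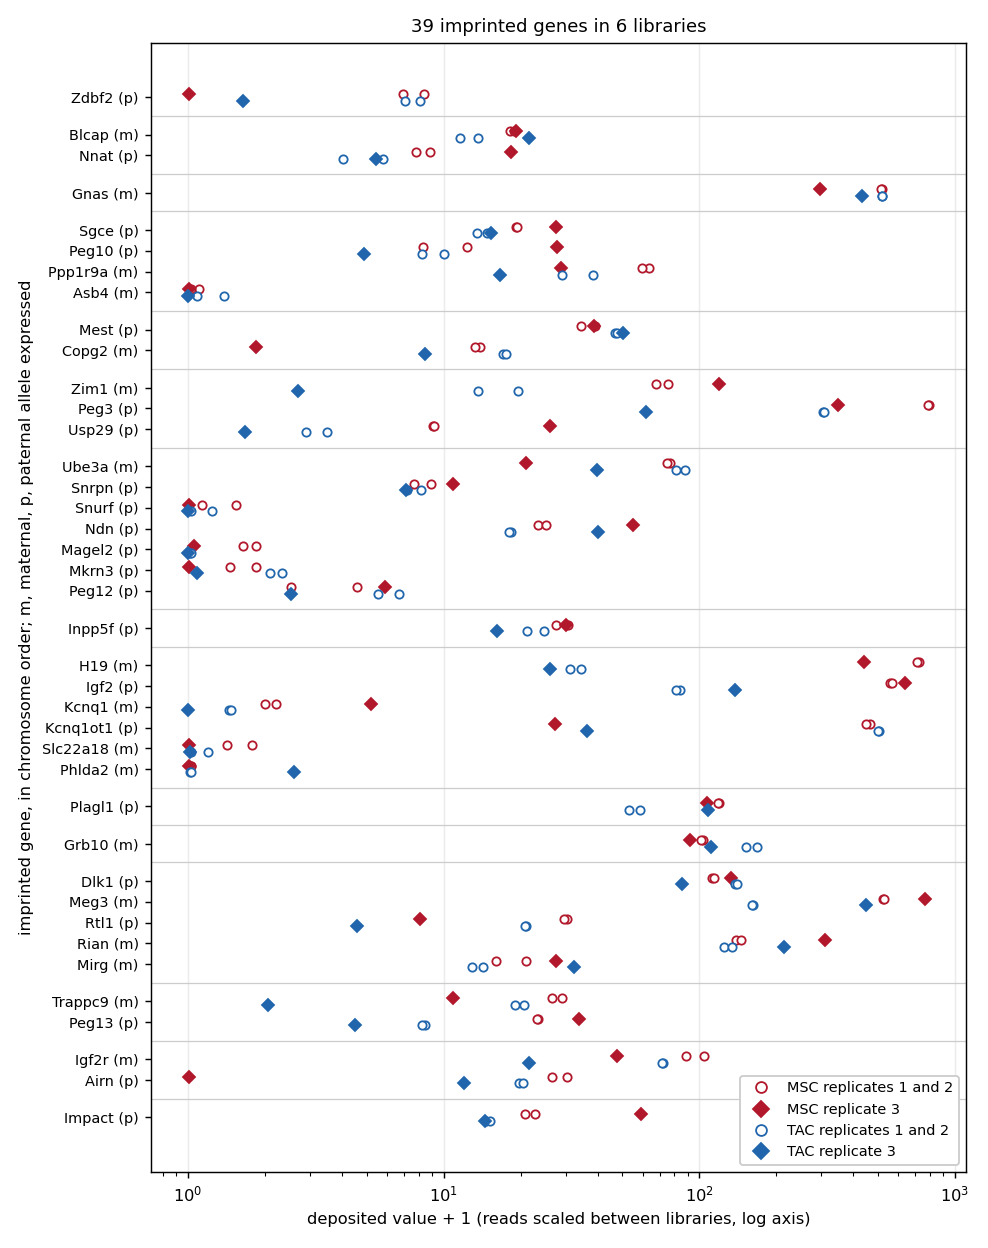
Deposited value + 1 of each of the 39 imprinted genes in each library (log axis), in chromosome order with lines between regions; red is MSC, blue is TAC, open circles are replicates 1 and 2 and filled diamonds replicate 3. H19, Igf2, Peg3, Zim1 and Usp29 show all 3 MSC points to the right of all 3 TAC points, while Kcnq1ot1 and Airn are spread mainly by replicate 3.

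The member with the largest log2 difference over all libraries, H19, lies in the H19 and Igf2 domain of distal chromosome 7. H19, a maternally expressed long noncoding RNA (chromosome 7, 142575529 to 142578143, minus strand, mm10), was listed at 726, 713 and 442 in MSCs and at 33.5, 30.2 and 25.2 in TACs. The lowest MSC value stood more than 10 times above the highest TAC value. Its mean was 627 ± 160.3 (SD, n = 3) in MSCs and 29.6 ± 4.21 (SD, n = 3) in TACs, a ratio of 21.2 and a log2 difference of -4.33 (SE 0.31), with -4.46 in replicates 1 and 2 and -4.08 in replicate 3. Igf2, the paternally expressed growth factor (142650766 to 142666816, minus strand), was listed at 558, 569 and 635 in MSCs and at 82.7, 80.4 and 137 in TACs. All 3 MSC values again lay above all 3 TAC values, with a log2 difference of -2.59 (SE 0.33) and -2.77 and -2.21 within the 2 sets. H19 and Igf2 share enhancers beyond H19, and a maternal insulator between the genes is known to keep Igf2 from them.

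Per kilobase of exon, H19 stood at 255 in MSCs and 12.04 in TACs and Igf2 at 103 and 17.5, so H19 was the higher of the pair in MSCs and the lower in TACs. Within each library, H19 over Igf2 was 1.30, 1.25 and 0.696 in MSCs and 0.405, 0.376 and 0.184 in TACs. The 2 groups did not overlap in this ratio, at 1.08 ± 0.337 (SD, n = 3) against 0.322 ± 0.1199 (SD, n = 3), and in both groups it was lowest in replicate 3. Igf2 overlaps the annotated antisense gene Igf2os, and since the use of strand in counting was not stated, reads of both could not be told apart.

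Both genes host a microRNA, and these are shown because the hosts are the genes of the region described above. The mature sequences are from RefSeq (GRCm38.p6), with the seed (bases 2 to 8) in capitals.
mmu-miR-675-5p (H19): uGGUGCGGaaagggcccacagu
mmu-miR-675-3p (H19): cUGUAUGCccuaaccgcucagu
mmu-miR-483-5p (Igf2): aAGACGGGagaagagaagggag
mmu-miR-483-3p (Igf2): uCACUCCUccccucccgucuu
No seed is shared among these 4. The table did not list either miRNA gene, so only the host transcripts were measured.

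Further along the same chromosome arm lies the domain that the noncoding RNA Kcnq1ot1 silences on the paternal copy. Kcnq1ot1 (143212155 to 143296549, minus strand) was listed at 464, 449.5 and 26.2 in MSCs and at 505, 500.2 and 35.3 in TACs. The populations lay close together within each set of libraries, at log2 differences of 0.14 and 0.41, and the libraries of replicate 3 were far below the others in both. Kcnq1, a potassium channel gene on the opposite strand that contains Kcnq1ot1, was listed at 1.21, 0.995 and 4.18 in MSCs and at 0.448, 0.475 and, with no read, 0.00379 in TACs. Its MSC values were all above its TAC values, at levels of 33.3 to 627 estimated reads in MSCs and 0 to 19.5 in TACs. Since the use of strand in counting was not stated, reads of Kcnq1 and Kcnq1ot1 could not be told apart where they overlap. The same limit holds for other overlapping pairs on opposite strands: Copg2 with Mest, Blcap with Nnat and Igf2r with Airn. Slc22a18 had 15, 26 and 0 estimated reads in MSCs and 8, 0 and 3 in TACs. Phlda2, a maternally expressed brake on placental growth, had 0 reads in 5 libraries and 420 in TAC replicate 3.

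**Figure D2:**
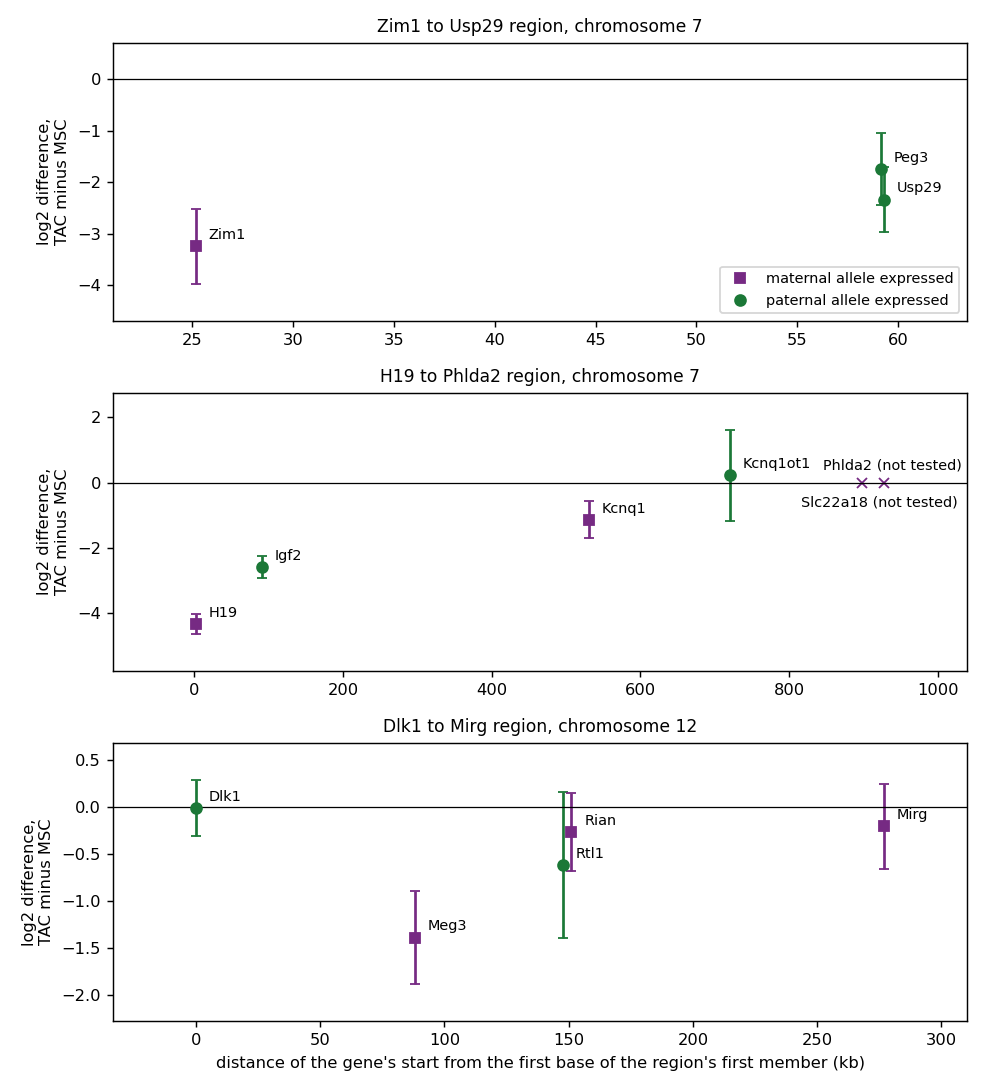
Log2 difference, TAC minus MSC, of each member with its standard error (bars) against the distance of its start from the first base of the region (kb), for 3 regions; squares are maternally and circles paternally expressed genes, and crosses mark members not tested. H19 and Igf2 lie lowest in the middle panel, at -4.33 and -2.59, and Meg3 lies lowest in the bottom panel, at -1.39, with Dlk1 at -0.01.

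All 3 members of the Peg3 domain of proximal chromosome 7 were higher in every MSC library than in any TAC library. Peg3, a paternally expressed zinc finger protein used as a marker of stem cells in many adult tissues (6703892 to 6730431, minus strand), was listed at 790.3, 785 and 349 in MSCs and 303, 307 and 60.7 in TACs. Replicate 3 was the lowest of its group in both populations, and the log2 difference was -1.75 (SE 0.70), with -1.37 in replicates 1 and 2, -2.50 in replicate 3 and -0.98 with TAC replicate 3 left out. Usp29, a deubiquitinase gene that starts beside Peg3 on the other strand (6730578 to 6967219), was listed at 8.13, 8.17 and 25.0 in MSCs and 1.90, 2.49 and 0.675 in TACs, a log2 difference of -2.33 (SE 0.62). Here the highest MSC value was that of replicate 3, and the difference was -1.52 in replicates 1 and 2 and -3.96 in replicate 3. Zim1, a maternally expressed zinc finger gene (6671269 to 6696450, minus strand), was listed at 67.0, 74.4 and 119 in MSCs and 18.5, 12.7 and 1.68 in TACs. With a log2 difference of -3.25 (SE 0.73) it was second to H19, at -2.13 in replicates 1 and 2 and -5.48 in replicate 3.

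Per kilobase of exon, Peg3 stood at 48.1 in MSCs and 16.8 in TACs, Zim1 at 10.7 and 1.36, and Usp29 at 0.762 and 0.0935. Zim1 over Peg3, a pair of opposite alleles, was 0.0848, 0.0948 and 0.340 in MSCs and 0.0612, 0.0414 and 0.0277 in TACs, without overlap. Usp29 over Peg3 overlapped between the groups, at 0.0103, 0.0104 and 0.0717 in MSCs and 0.00628, 0.00814 and 0.0111 in TACs. Peg3 and Usp29 are read in opposite directions with 163 bases between their RefSeq starts (6730419 and 6730583, which differ from the gene ends given above), and both were higher in MSCs, so the stretch between their starts is shown (RefSeq, GRCm38.p6, plus strand, chr7:6730420-6730582). It is 62.0% G or C and holds the 5 CpG dinucleotides, the letters that imprint methylation acts on, in capitals.
Peg3 and Usp29 starts: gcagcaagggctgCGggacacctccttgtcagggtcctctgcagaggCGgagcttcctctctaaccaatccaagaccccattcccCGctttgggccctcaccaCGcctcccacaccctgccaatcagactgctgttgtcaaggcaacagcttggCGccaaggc

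The Dlk1 and Meg3 domain of chromosome 12 holds 5 members, and only the noncoding RNA Meg3 was without overlap. Meg3 (109541001 to 109571726, plus strand), expressed from the maternal copy, was listed at 522, 527 and 760.1 in MSCs and at 161, 160.2 and 446 in TACs. The lowest MSC value was above the TAC value of replicate 3, by less than the TAC replicates differed among themselves. Its mean was 603 ± 136 (SD, n = 3) in MSCs and 256 ± 165 (SD, n = 3) in TACs, a log2 difference of -1.39 (SE 0.49), with -1.70 and -0.77 in the 2 sets. Dlk1, the paternally expressed Notch-like ligand of the domain, was listed at 111, 113 and 132 in MSCs and at 137, 139 and 84.5 in TACs. It had no common direction: 0.30 in replicates 1 and 2 and -0.64 in replicate 3. Meg3 over Dlk1 was 4.70, 4.67 and 5.75 in MSCs and 1.17, 1.15 and 5.28 in TACs, so the groups were apart in replicates 1 and 2 and close in replicate 3.

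Rian and Mirg, which lie after Meg3 on the same strand and carry small RNAs, differed less. Rian was listed at 138, 145 and 309 in MSCs and 124, 133 and 213 in TACs, a log2 difference of -0.27 (SE 0.41), with -0.14 and -0.53 in the 2 sets. Mirg was listed at 19.9, 15.0 and 26.4 in MSCs and 11.9, 13.3 and 31.3 in TACs, at -0.21 (SE 0.45), with -0.43 and 0.23. Relative to Meg3 both were higher in TACs without overlap. Rian over Meg3 was 0.265, 0.275 and 0.407 in MSCs and 0.772, 0.831 and 0.478 in TACs, and Mirg over Meg3 was 0.0382, 0.0285 and 0.0348 against 0.0743, 0.0829 and 0.0700. Rtl1, a retrotransposon-derived gene of the paternal copy, was listed at 29.3, 28.6 and 7.12 in MSCs and 20.03, 19.8 and 3.58 in TACs, with replicate 3 lowest in both groups. Per kilobase of exon, the order in MSCs was Meg3 at 33.3, Dlk1 at 21.0, Rian at 10.8, Rtl1 at 3.41 and Mirg at 2.81, and in TACs the means were 21.2 for Dlk1 and 14.1 for Meg3. These orders did not hold in every library: in TAC replicate 3 Meg3 stood at 24.7 and Dlk1 at 14.9, and in MSC replicate 3 Rtl1 stood at 1.12 and Mirg at 3.63.

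The members hold 29 annotated miRNA hairpins and 56 mature miRNAs, of which mmu-miR-1906 in Meg3 has no hairpin among the 29. Of the hairpins, 14 were in Mirg, 7 in Rtl1 (6 of them antisense to it), 3 in Rian and 1 each in Meg3, Mest, Usp29, H19 and Igf2. A seed shared by 2 of these miRNAs, GGUUGCC, occurred once among 55 seeds, within Mirg. Those 2 are shown, with miRNAs from 3 of the 6 hairpins antisense to Rtl1, whose products are known to act on its transcript when expressed from the maternal copy.
mmu-miR-453 (Mirg): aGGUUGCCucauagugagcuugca
mmu-miR-496a-5p (Mirg): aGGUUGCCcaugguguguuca
mmu-miR-127-3p (antisense to Rtl1): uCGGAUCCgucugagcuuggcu
mmu-miR-433-3p (antisense to Rtl1): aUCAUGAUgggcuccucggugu
mmu-miR-136-5p (antisense to Rtl1): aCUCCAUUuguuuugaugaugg
The table listed 1 of these miRNA genes, Mir433, and mature miRNAs were not measured by these libraries.

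**Figure D3:**
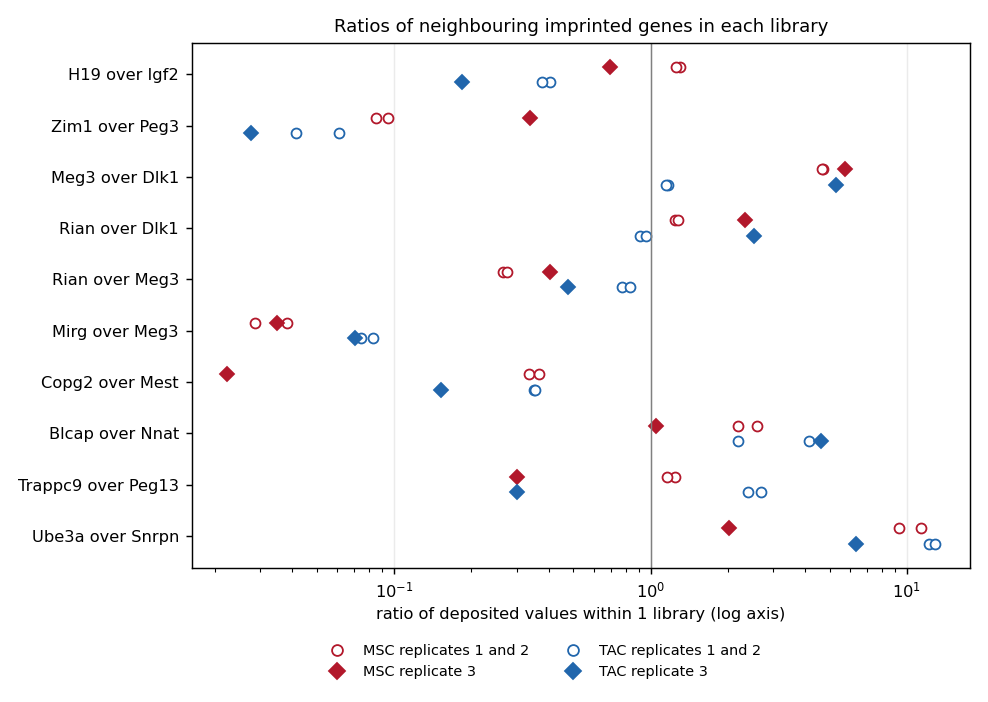
Ratio of the deposited values of 2 neighbouring imprinted genes within each library (log axis); red is MSC, blue is TAC, open circles are replicates 1 and 2 and filled diamonds replicate 3, and the line marks a ratio of 1. H19 over Igf2 and Zim1 over Peg3 are higher in all MSC libraries, Rian and Mirg over Meg3 are higher in all TAC libraries, and the other pairs overlap.

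Igf2r, the maternally expressed receptor that takes IGF2 up for breakdown, lies on chromosome 17 (12682406 to 12769664, minus strand) and overlaps the paternal noncoding RNA Airn that silences it. Igf2r was listed at 87.6, 104 and 46.5 in MSCs and 71.3, 70.2 and 20.6 in TACs, with replicate 3 lowest in each group and the groups overlapping. Its log2 difference was -0.66 (SE 0.55), and it was -0.09 without TAC replicate 3. Airn was listed at 29.3 and 25.5 in MSC replicates 1 and 2 and at the value of no read in MSC replicate 3, against 18.8, 19.5 and 11.04 in TACs. Its direction differed between the sets, at -0.49 and 3.58, and the second value rests on the 0 reads of MSC replicate 3, a library whose limit for 0 reads is 3 reads, or 0.01997. Grb10, an adaptor that restrains signalling from the insulin and IGF receptors (chromosome 11, 11930508 to 12038683, minus strand), was 1 of the 2 members higher in every TAC library. It was listed at 102, 101 and 90.6 in MSCs and at 151, 167 and 110.1 in TACs, at 97.7 ± 6.18 (SD, n = 3) against 143 ± 29.5 (SD, n = 3) and a log2 difference of 0.52 (SE 0.28). Plagl1, a zinc finger factor of chromosome 10 known to act on other imprinted genes, was listed at 118, 118 and 106 in MSCs and 52.1, 57.5 and 107 in TACs, so MSCs were above TACs in replicates 1 and 2 and level with them in replicate 3.

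The other member higher in every TAC library was Mest, a paternally expressed hydrolase-like gene of chromosome 6 (30723547 to 30748465, plus strand). It was listed at 38.3, 33.4 and 37.8 in MSCs and 46.0, 46.5 and 49.2 in TACs. Its log2 difference of 0.36 (SE 0.24) was small but even, at 0.36 and 0.37 in the 2 sets. Copg2, a coat protein gene that ends inside Mest on the other strand, was listed at 12.8, 12.3 and 0.841 in MSCs and 16.1, 16.5 and 7.46 in TACs. Copg2 over Mest overlapped, at 0.335, 0.367 and 0.0223 in MSCs and 0.351, 0.356 and 0.152 in TACs, with replicate 3 the lowest in both.

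On proximal chromosome 6, Sgce, the paternally expressed sarcoglycan epsilon gene, was listed at 18.2, 18.3 and 26.5 in MSCs and 12.5, 13.7 and 14.3 in TACs without overlap, a log2 difference of -0.58 (SE 0.32). Its neighbour Peg10, a retrotransposon-derived gene that starts next to it in the opposite direction, was listed at 11.4, 7.27 and 26.8 in MSCs and 9.02, 7.26 and 3.89 in TACs, values that overlapped. Ppp1r9a, the actin-binding protein neurabin, was listed at 62.4, 58.9 and 27.9 in MSCs and 37.3, 28.1 and 15.6 in TACs, with differences of -0.88 and -0.80 in the 2 sets. The groups overlapped only because MSC replicate 3 lay below TAC replicates 1 and 2. Asb4 had at most 15 estimated reads in any library.

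Nnat, the paternally expressed membrane proteolipid neuronatin (chromosome 2, 157560078 to 157562522, plus strand), lies inside the maternally expressed Blcap. Nnat was listed at 7.83, 6.81 and 17.4 in MSCs and 3.04, 4.82 and 4.45 in TACs without overlap, a log2 difference of -1.10 (SE 0.52), or -0.72 without MSC replicate 3. Blcap was listed at 17.2, 17.8 and 18.2 in MSCs and 12.7, 10.6 and 20.6 in TACs and had opposite directions in the 2 sets. On the same chromosome Gnas, the stimulatory G protein subunit, was among the most abundant members, at 519, 512 and 296 in MSCs and 519, 518 and 432 in TACs, and its groups overlapped.

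Peg13, a paternal noncoding RNA of chromosome 15 (72805600 to 72810324, minus strand) inside the trafficking gene Trappc9, was listed at 22.4, 22.2 and 32.9 in MSCs and 7.47, 7.26 and 3.52 in TACs. All MSC values were above all TAC values, and the log2 difference was -1.95 (SE 0.41). Trappc9, on the same strand, was listed at 28.0, 25.6 and 9.88 in MSCs and 17.98, 19.7 and 1.07 in TACs, with overlap and with replicate 3 lowest in both groups. Trappc9 over Peg13 was 1.25, 1.16 and 0.300 in MSCs and 2.41, 2.71 and 0.302 in TACs, so the ratio was higher in TACs in replicates 1 and 2 and level in replicate 3.

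Impact, a paternally expressed inhibitor of the translation kinase GCN2 on chromosome 18, was listed at 21.7, 19.8 and 58.3 in MSCs and 13.6, 14.2 and 13.5 in TACs. Inpp5f, a phosphoinositide phosphatase of chromosome 7, was listed at 29.8, 26.5 and 29.1 in MSCs and 23.8, 20.1 and 15.2 in TACs. Both were without overlap, at log2 differences of -1.04 (SE 0.45) and -0.53 (SE 0.30), and Impact was at -0.56 without MSC replicate 3. Zdbf2 on chromosome 1 was listed at 7.35, 5.94 and, with no read, 0.00666 in MSCs and 7.12, 6.09 and 0.641 in TACs, level between the populations in replicates 1 and 2.

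In the Prader-Willi and Angelman domain of central chromosome 7, 4 of 7 members were tested, and the values of each overlapped between the groups. Ndn, the paternally expressed growth suppressor necdin, was listed at 22.4, 24.2 and 53.9 in MSCs and 17.4, 17.0 and 39.2 in TACs, with -0.41 and -0.45 in the 2 sets. Snrpn, a splicing protein gene, was listed at 6.67, 7.94 and 9.86 against 7.13, 6.20 and 6.13, and Peg12 at 1.52, 3.59 and 4.93 against 4.53, 5.68 and 1.53. Ube3a, a ubiquitin ligase expressed from the maternal copy in neurons, was listed at 75.8, 73.9 and 20.01 in MSCs and 87.2, 79.8 and 38.9 in TACs. Ube3a over Snrpn overlapped, at 11.4, 9.31 and 2.03 in MSCs and 12.2, 12.9 and 6.35 in TACs. Among the members not tested, Magel2 had 31, 21 and 7 estimated reads in the MSC libraries and 0 in all 3 TAC libraries. Mkrn3 had 31, 15 and 0 against 49, 55 and 22, and Snurf, which shares its transcript with Snrpn, at most 19.1.

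**Figure D4:**
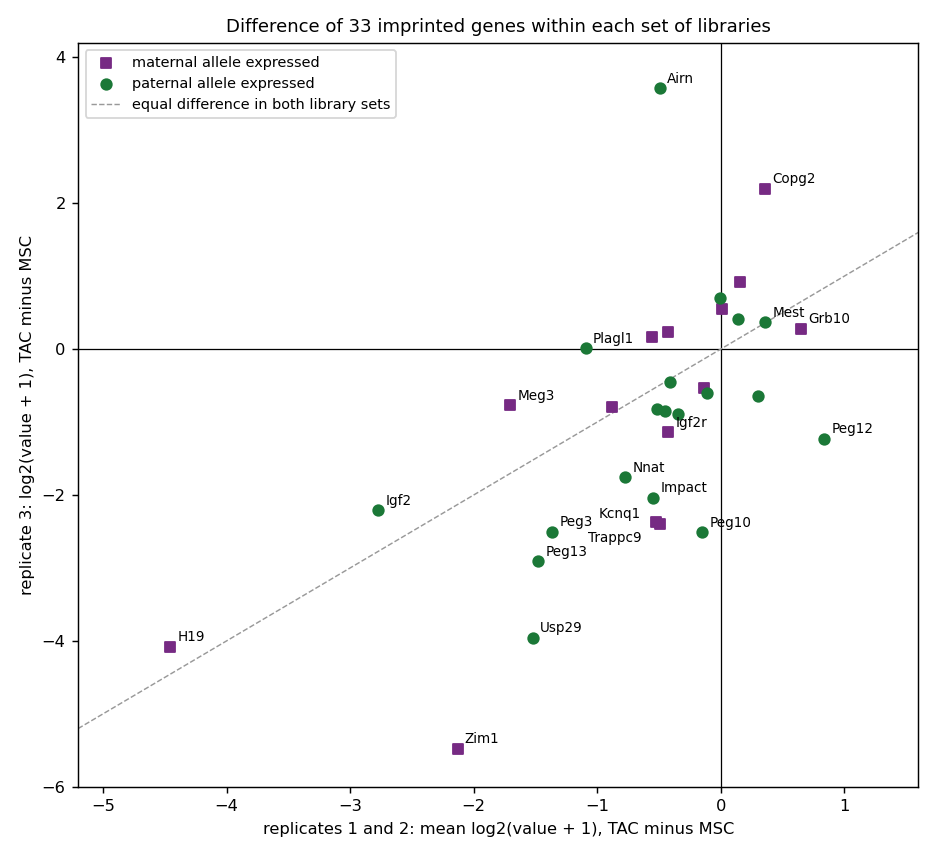
Log2 difference, TAC minus MSC, of the 33 members tested within replicates 1 and 2 (horizontal) and within replicate 3 (vertical); squares are maternally and circles paternally expressed genes, and the dashed line marks equal differences. Below and left of the zero lines lie the 20 members higher in MSCs in both sets, with H19, Igf2, Zim1 and Usp29 farthest out, and Airn stands alone at the top left.

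The comparison of replicate 3 with replicates 1 and 2, fitted over both groups with the population as a covariate, was not used to choose the members. The split was made because replicate 3 stood apart in these same values, so many calls were fixed beforehand. The adjusted p-values below describe that split and do not test whether it exists. In limma with Benjamini-Hochberg adjustment over all genes tested, 5 members were higher in replicate 3 (15.2%, where 13.8% of all genes were called so) and 12 were lower (36.4%, where 29.7% were). The median difference was -0.22 for the members and -0.35 for all genes tested. Those higher in replicate 3 were Ndn (log2 1.16, SE 0.15, adjusted p = 0.00349), Meg3 (1.00, SE 0.21, adjusted p = 0.0134), Rian (0.92, adjusted p = 0.00369), Mirg (0.92, adjusted p = 0.0287) and Igf2 (0.46, adjusted p = 0.0462). Meg3, Rian and Mirg are the noncoding members of chromosome 12, and the call of Mirg was lost when MSC replicate 2 or either of the first 2 TAC libraries was removed, while Rtl1 of the same region was lower (-2.04, SE 0.20, adjusted p = 0.00177).

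Lowest in replicate 3 was Kcnq1ot1, at -3.93 (SE 0.10, adjusted p = 3.65e-05), with -4.07 in MSCs and -3.80 in TACs. Its share of estimated reads was 0.0768% to 0.0902% in replicates 1 and 2 and 0.00659% and 0.00860% in replicate 3. Airn, the noncoding RNA of the Igf2r region, was also lower (-2.78, SE 0.88, adjusted p = 0.0491), with -4.82 in MSCs, where replicate 3 had 0 reads, and -0.74 in TACs. It was not called with a pseudocount of 0.5, a minimum mean of 5, no filter or no variance trend. Igf2 was not called in the last 2 of these, and Gnas and H19 were not called without the variance trend. With 1 library of replicates 1 and 2 left out (28.0% to 30.01% of all genes called), 11 of the 17 members were called whichever it was, whereas Airn, Gnas and Igf2 never were, H19 and Mirg were lost in 3 of the 4 cases and Copg2 in 2. Lower in replicate 3 were also its overlapping partner Igf2r (-1.38, adjusted p = 0.00459), Zdbf2 (-2.56, adjusted p = 0.00362), Trappc9 (-2.31, adjusted p = 0.0111), Copg2 (-1.96, adjusted p = 0.0186) and Peg3 (-1.74, adjusted p = 0.00473). Ube3a, Ppp1r9a, Gnas and H19 completed the 12, at -1.47, -1.05, -0.53 and -0.51. With replicates 1 and 2 averaged into 1 sample, Meg3 and Rian were called higher and Airn, Igf2r, Kcnq1ot1, Peg3, Ube3a and Zdbf2 lower, beside 19.9% of all genes. Of all genes called, 31.7% were higher in replicate 3. After quantile normalization this share was 51.0% and the median of all genes was 0.02, no called member changed sign, and H19 was no longer called. The count of 17 members called went to 11 without MSC replicate 2, 27 without MSC replicate 3 and 26 without TAC replicate 3, settings in which 28.0%, 65.9% and 79.5% of all genes were called. Mitochondrial ribosomal RNA and the share of genes with no read differed between the same sets, as given above, and their part in these differences was not tested.

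**Figure D5:**
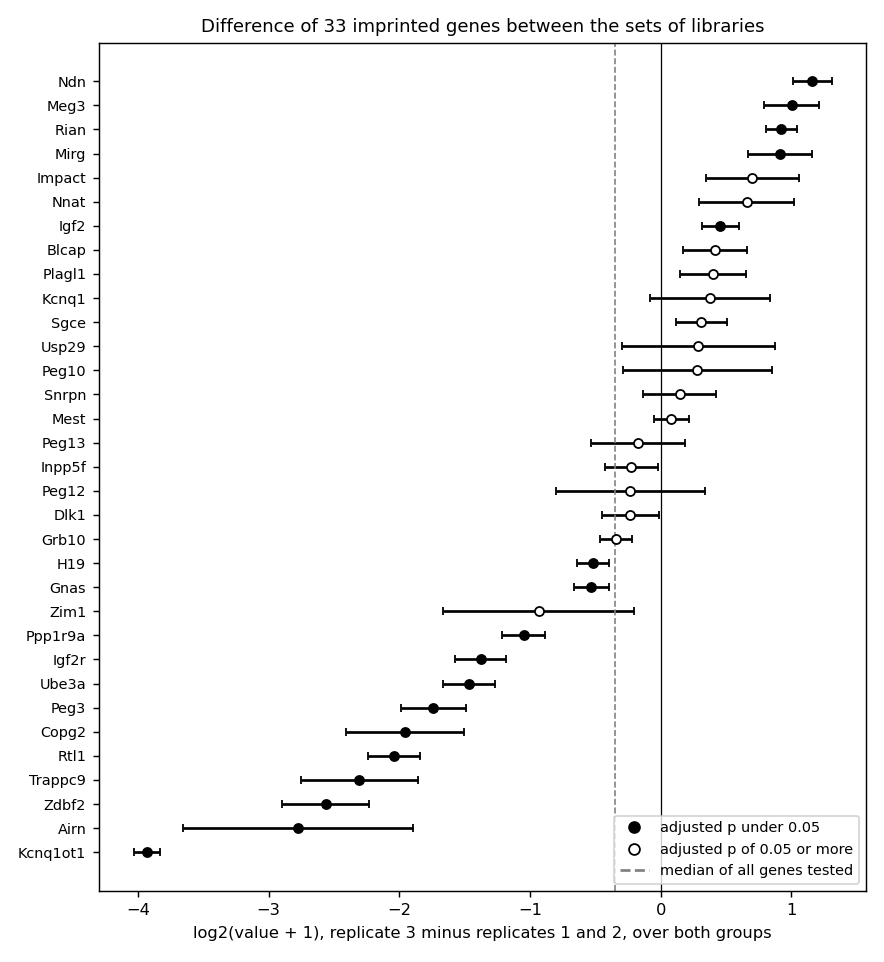
Log2 difference of the 33 members tested, replicate 3 minus replicates 1 and 2 over both groups, with standard errors; filled points have an adjusted p under 0.05 in limma and the dashed line is the median of all genes tested (-0.35). Kcnq1ot1 stands lowest at -3.93 and Ndn highest at 1.16.

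Other cell types could be in the captured areas, and their markers also differed between the groups. Over all genes tested, 12.2% were higher in every MSC library and 12.3% in every TAC library. Of 9 smooth muscle and pericyte markers 8 were tested, all 8 were higher in every MSC library, and the list's summed value was 938 to 1639 in MSCs and 174 to 210.1 in TACs. Of 8 endothelial markers 4 were so, with sums of 199.6 to 274 and 131 to 135. Of 8 markers of dividing cells, 7 were higher in every TAC library, with sums of 96.7 to 199 in MSCs and 312 to 968 in TACs. The sums of the 11 listed epithelial markers (299.7 to 3660 and 2160 to 3349), the 14 dental mesenchyme markers (2987 to 11402 and 9518 to 13061) and the 7 odontoblast markers (857 to 5360 and 4853 to 4976) overlapped between the groups and were lowest in MSC replicate 3. The enamel genes Amelx, Ambn and Enam carried most of the epithelial sum, while 5 of the 10 epithelial markers tested (Krt5, Krt14, Krt17, Cdh1 and Epcam) were higher in every TAC library, and the list's median log2 difference was 1.16. Col1a1 carried most of the mesenchyme sum and Dspp most of the odontoblast sum. Of the mesenchyme markers, Pax9, Lhx8 and Prrx1 were higher in every MSC library and Msx1 and Msx2 in every TAC library. Macrophage (78.3 to 232 and 46.9 to 135) and follicle sums (87.6 to 150.5 and 81.0 to 111) overlapped too, whereas the 7 Schwann cell markers summed to 24.3 to 49.9 in MSCs and 8.58 to 19.3 in TACs. Among those tested, 2 of 7 macrophage, 2 of 6 follicle and 2 of 5 Schwann cell markers were higher in every MSC library. Of the 7 listed neuron markers 1, Tubb3, was tested, and it was higher in every TAC library, at 3.14, 3.86 and, with no read, 0.00666 in MSCs and 17.0, 18.6 and 14.1 in TACs. It carried the list's sums of 2.80 to 4.67 in MSCs, except in replicate 3, and 17.1 to 20.2 in TACs. Elavl3 had no read in any TAC library, and no other marker was without a read throughout a group. The part of these cells in the values of the imprinted genes was not tested.

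The median of a further list of genes, taken as imprinted by name, lay near that of all genes. Whether each of them is imprinted in this tissue was not measured. Of the 57 genes on it 44 were listed and 35 tested, with a median log2 difference of 0.09. Among these, 6 were higher in every MSC library (12.2% of all genes were), 4 were higher in every TAC library (12.3% were), and 1 was called, beside 0.422% of all genes. That gene was Dio3, the deiodinase that inactivates thyroid hormone, which lies beyond Mirg on chromosome 12 (110279068 to 110281097). It was listed at 46.7, 51.7 and 37.4 in MSCs and at 1.97, 0.839 and 0.557 in TACs, a log2 difference of -4.49 (SE 0.44). With single libraries left out it ran from -4.76 to -4.29, and it was not called where 1 library of replicates 1 and 2 was removed, settings in which 0 of all genes were. Begain, on the other side of Dlk1, was also without overlap, at 31.6, 33.7 and 55.0 against 9.68, 11.7 and 12.1, while Dlk1 between them did not differ in 1 direction. Osbpl5, beyond Phlda2 on chromosome 7, was listed at 21.9, 24.9 and 27.1 against 10.4, 9.37 and 12.8, and Zrsr1 on chromosome 11 at 29.2, 28.2 and 18.2 against 11.9, 14.1 and 3.88.

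Factors that keep or read imprints had a median log2 difference of 0.28, with 0.38 in replicates 1 and 2 and -0.10 in replicate 3, so the list had no common side. Of 16 on the list 14 were listed and 13 tested, 1 was higher in every MSC library and 2 in every TAC library, and 0 were called in limma (2 had an unadjusted p under 0.05), where 12.2% and 12.3% of all genes were without overlap and 0.422% were called. With the replicate block 1 was called, beside 1.49% of all genes, the maintenance methyltransferase Dnmt1, named after its values were seen, at 88.6, 91.7 and 29.0 in MSCs and 203, 197 and 82.7 in TACs. Uhrf1, which brings DNMT1 to newly copied DNA, was listed at 12.4, 16.3 and, with no read, 0.00666 in MSCs and at 60.1, 63.5 and 28.2 in TACs. It was the only factor without overlap that differed by at least 1 on the log2 scale in both sets. The list of dividing-cell markers was higher in the same libraries, and its part in the Uhrf1 values was not tested.

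Promoter windows of RefSeq (GRCm38.p6, 250 bases before to 50 after a start) were found for 31 of the 39 members, in 47 windows. H19, Kcnq1 and Peg13 were among the members without a window. The windows were searched on both strands for TGCCGC, the letters that the imprint-keeping factor ZFP57 binds when methylated. The motif was in 25.5% of the members' windows, 11.6% of all windows and 18.9% of the windows of genes tested. Snrpn and Snurf share a window with it, and Mest windows with it overlap, so the members' share counts some stretches more than once. The median number of CpG dinucleotides was 13 in the members' windows, 7 in all windows and 20 in those of genes tested. Among members whose groups did not overlap, windows of Grb10, Igf2, Meg3, Mest, Nnat and Zim1 held it, as did those of Copg2, Plagl1, Snrpn and Zdbf2, whose groups overlapped, and of Snurf, which was not tested. The stretches of 4 members without overlap are shown. The motif is in capitals, and each stretch is read in the direction of its gene, so that the capitals are the reverse complement of TGCCGC.
Zim1 chr7:6696435-6696464, minus strand: gaaagtcatcccGCGGCAttccactccggg
Meg3 chr12:109540794-109540823, plus strand: gccaggggcactGCGGCAgatttttttttc
Nnat chr2:157560093-157560122, plus strand: gccaccggggctGCGGCAttgcgcccagca
Mest chr6:30737971-30738000, plus strand: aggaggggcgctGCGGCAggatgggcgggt
Zim1, Meg3 and Nnat were higher in MSCs and Mest in TACs. Windows of Peg3, Usp29 and Dlk1 did not hold them. A match is a run of letters, and methylation and binding were not measured.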

How the data were processed

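RNA from 3 MSC and 3 TAC laser-captured samples was sequenced single-end. Per the labels and the study's methods, the authors aligned reads to mm10 with TopHat2 2.0.8 (CASAVA 1.8.2 and Partek are also named); how reads were counted, and whether strand was used, is not given in the sources used here. The deposited values were read as a signal: (reads + 1) divided by 1 size factor per library. The methods name RPKM, but values were not divided by length. Estimated reads are a value over the library's lowest value, minus 1, so depth is known only through this estimate. Within a tolerance of 0.1 multiple, 83.3% to 96.6% of low values (up to 20 multiples) were whole, too few for a count test.

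Analysis used limma 3.58.1 in R 4.3.3 on log2(value + 1), with a variance trend, for genes with a mean of at least 1, two-sided, with Benjamini-Hochberg adjustment and calls at 0.05. Fold changes on this scale understate those of low genes. The script was tested on simulated data. Members and gene lists were chosen with earlier results of these data known. Members whose starts lay within 3 Mb of the next formed a region. Every member is named; from the 2 other imprint lists, genes without overlap and with a log2 size of at least 1 in both sets of libraries are named. Same-numbered MSC and TAC samples deviated together (correlations of 0.477, 0.465 and 0.517), as did replicate 1 with 2 across groups (0.462 and 0.480). The correlations therefore reflect replicate 3 against the rest, and a pairing by number within replicates 1 and 2 was not seen. Coordinates are 1-based on mm10, and 35 members match GENCODE M21 at both ends. Columns of per-sample values not used numbered 0. Nothing in the sources ties samples to single mice, so p-values measure the spread between these samples. Alternatives are given in the closing section; the average of replicates 1 and 2 was chosen after seeing the data.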

Additional observations from a re-analysis of the deposited data

How the results depend on the processing

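For the members called between TAC and MSC (2), the replicate block gave 2 as well, and it changed no other call on a list of members; over all genes it gave 229 calls against 65, and for the imprint maintenance factors 1 against 0. The count of members was also 2 with a pseudocount of 0.5, a minimum mean of 5, no filter, quantile normalization or median-ratio scaling. It was 1 without the variance trend (0.188% of all genes) and 8 with the library set as a batch term (1814 of all genes, 11.8%). With replicates 1 and 2 only it was 23 (6796 of all genes, 44.2%). With replicates 1 and 2 averaged it was 1 (H19, beside 10 of all genes, 0.065%). Leaving out single libraries gave 0 to 2: it was 0 with any single library of replicates 1 and 2 removed, where 0 of all genes were called and 1028 to 1367 had an unadjusted p under 0.05.

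For replicate 3 against replicates 1 and 2 (17 members), single libraries left out gave 11 to 27, with 11 when MSC replicate 2 was removed, 27 when MSC replicate 3 and 26 when TAC replicate 3 was (28.0%, 65.9% and 79.5% of all genes), and the average gave 8 (19.9%). Among the other genes taken as imprinted (1 called), the batch term gave 7, replicates 1 and 2 only 18 and the average 0. Single libraries left out gave 0 to 2. For maintenance factors (0 called) these were 4, 10, 0 and 0. The shares of all genes called in these settings were 11.8%, 44.2%, 0.065% and 0 to 1.90%. Calls of genes higher in replicate 3 were 31.7% of all calls, and 51.0% after quantile normalization.

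Of the 33 members tested, 23 kept the sign of their log2 difference in all alternatives run and 10 did not: Airn, Dlk1, Gnas, Kcnq1ot1, Mirg, Peg12, Rian, Rtl1, Ube3a and Zdbf2, none of them under a scaling alternative. H19 ran from -4.57 to -4.21, Igf2 from -2.83 to -2.45, Zim1 from -3.81 to -2.13, Meg3 from -1.88 to -1.14, Peg3 from -2.14 to -0.98 and Grb10 from 0.40 to 0.70. Among the 14 members without overlap, the removal of 1 library moved 4 by over 1.5 times: Nnat, Kcnq1 and Impact to -0.72, -0.70 and -0.56 without MSC replicate 3, and Peg3 to -0.98 without TAC replicate 3. Igf2r, whose groups overlapped, was at -0.09 without the latter. The cause of these changes was not tested. The 6 members not tested had 0 reads in up to 5 libraries, and the deepest library, TAC replicate 3, had 0 reads of Asb4, Magel2 and Snurf, at a limit for 0 reads of 3.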
